A study of Mus musculus with 9 samples.

Results

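This comparison set 3 RNA sequencing libraries of mouse hepatic stellate cells labelled Sqstm1 knock-out against 3 libraries of the same cell type labelled wild type. These are 6 of the 9 libraries in the table, and the comparison was made across the 10118 of 14020 genes that reached a normalized count of at least 10 in 3 or more of the 9 libraries. The other 3 libraries are labelled as a double knock-out of Nbr1 and Sqstm1, and they entered the fit to share one estimate of the spread. All groups came from liver and were cultured for 4 days in serum-containing medium with no further treatment. Strain, age, sex, the part of Sqstm1 that was removed and the cells in which it was removed are details not given in the sources used here. Nor do the labels say whether the replicates were separate animals or separate cultures, so p-values measure the spread between these samples, and the design text describes an Nbr1 knock-out rather than these genotypes. By its title, the series asks about STING signalling in stellate cells and the opposing parts of NBR1 and p62 in it.

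Sqstm1 encodes p62, a scaffold protein that binds ubiquitinated cargo and the autophagosome protein LC3, and so links selective autophagy to KEAP1-NRF2, NF-kB and nutrient signalling. Hepatic stellate cells sit beside the liver sinusoid and store vitamin A. In injury or in culture they activate into contractile myofibroblasts that make collagen, and they also sense cytosolic DNA through cGAS and STING, a pathway that induces type I interferon and, through STAT and IRF factors, the interferon-stimulated genes.

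The libraries held 819677 to 1467793 counted reads in wild type and 1060809 to 1333537 in Sqstm1 knock-out. Sqstm1 knock-out replicate 3 stood apart: 12673 genes had reads in it, 18.5% of its reads came from its 10 most abundant genes, compared with 13.9% and 11.5% for knock-out replicates 1 and 2, and its correlation with the wild-type libraries across genes was 0.77 to 0.80. Of 22 stellate cell markers, 12 were in the table, and Lrat, Reln, Lhx2, Tcf21, Rgs5, Ngfr, Des, Lum, Colec11 and Cygb were not. The summed value of the 12 was 1550 to 1720 in wild type and 4963 to 5942 in knock-out libraries. Most of that sum came from Col1a1, Col1a2, Col3a1 and Acta2, the collagen and contractile genes described below. The sum is therefore no separate measure of stellate cell content. The mesenchymal receptor genes Pdgfrb and Pdgfra had reads in every library. Pdgfrb had 44.9, 61.0 and 61.9 in wild type and 55.1, 60.1 and 43.4 in knock-out libraries, and Pdgfra had 119.8, 80.6 and 95.2 against 56.1, 99.0 and 67.2, with overlap between the groups in both genes. The table held 1 of 21 hepatocyte markers, 4 of 24 macrophage markers, 1 of 16 lymphocyte markers and none of 10 neutrophil markers. It held 4 of 19 endothelial markers, without Pecam1, Cdh5 and Kdr, and their summed value was 92.2 to 124 in wild type and 94.96 to 361 in knock-out libraries. Of these, Eng, the TGF-beta co-receptor endoglin, was called higher, from 31.3, 21.1 and 21.2 to 72.5, 34.9 and 159 (log2 fold change 1.58, SE 0.43, adjusted p = 0.0445), a call lost without knock-out replicate 1 or 3 or any 1 wild-type or double knock-out library (adjusted p 0.0593 to 0.168). It held 5 of 21 portal fibroblast and mesothelial markers, without Eln, Gli1 and Msln, with a sum of 206 to 244 in wild type and 242 to 435 in knock-out libraries. In bulk RNA, fewer cells of a type and less RNA per cell cannot be told apart.

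Sqstm1 itself fell in all 3 knock-out libraries. Its normalized counts were 223, 255 and 243 in wild type and 40.8, 30.8 and 86.8 in the knock-out libraries. The groups did not overlap, and knock-out replicate 3 kept the highest value of its group (log2 fold change -2.30, SE 0.38, adjusted p = 0.00230). Exons of Mrnip lie on the opposite strand of the same stretch. Its values, which were looked up after those of Sqstm1 were known, were 13.6, 17.3 and 10.3 against 1.02, 5.68 and 0, also without overlap, and its change did not pass the test (log2 fold change -2.60, SE 0.78, adjusted p = 0.0704). Strandedness is not given in the sources used here, so reads of the 2 genes cannot be told apart. Nbr1, the gene of the related autophagy receptor, had 106, 92.7 and 106 in wild type and 75.5, 72.2 and 88.9 in knock-out libraries and did not pass the test (log2 fold change -0.36, SE 0.24, adjusted p = 0.452).

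Across all tested genes, 568 (5.61%) changed at an adjusted p under 0.05 by limma: 246 (2.43%) were higher and 322 (3.18%) were lower in the knock-out libraries. The groups' values were separate, with no overlap, for 2634 genes (26.0%), with the knock-out values above for 1255 (12.4%) and below for 1379 (13.6%). The median log2 fold change over all genes was -0.01. The size of the call set rested on the wild-type libraries: without wild-type replicate 1, 2 or 3 it was 283, 264 or 315 genes. Among the largest falls were Thbs2, Gbp9, Oasl2 and Grem1. Among the largest rises were Cdh11, Ptprz1, Actg2, Acta2, Postn and Col1a2. These genes belong to 2 groups that are described first, interferon-responsive genes and genes of the contractile and matrix programme, and to others that encode secreted signals and adhesion molecules.

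**Figure D1:**
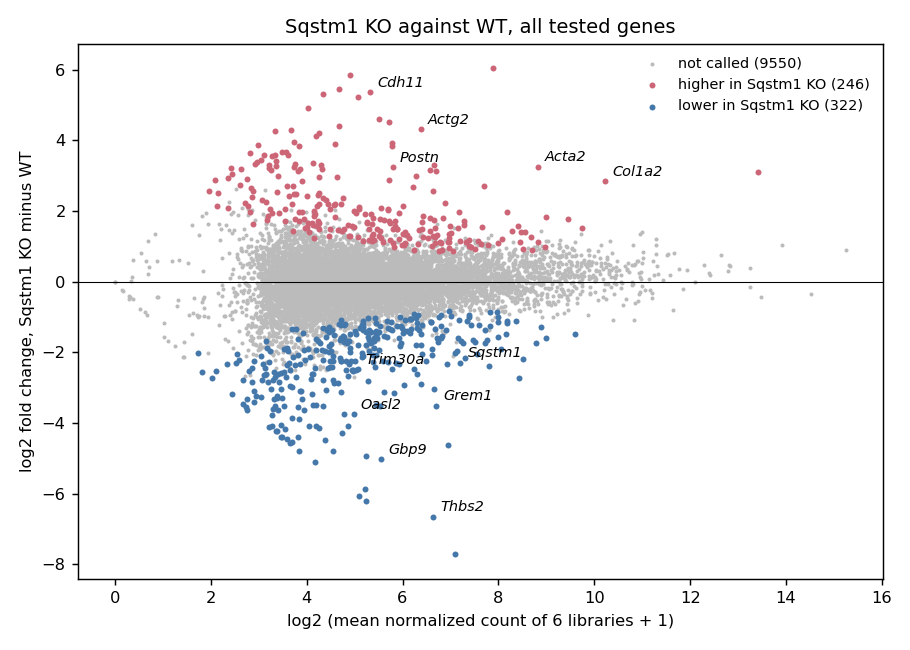
Log2 fold change of Sqstm1 knock-out against wild type (vertical axis, log2 units) over the log2 mean normalized count of the 6 libraries plus 1 (horizontal axis) for 10118 genes. Red points are the 246 genes called higher and blue points the 322 called lower; Thbs2 and Gbp9 lie near the lower edge and Cdh11 near the upper edge.

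Many interferon-stimulated genes were lower in the knock-out libraries. Of the 51 tested, 22 were lower, 0 were higher, and 49 had a negative fold change, with a list median of -1.21 on the log2 scale; 3.18% of all tested genes were lower. The list median was between -1.36 and -1.16 when any 1 library was left out. The number called lower was 12, 12 and 10 without wild-type replicate 1, 2 or 3 and 14 without knock-out replicate 1. Among the 38 members without exons of another gene on the opposite strand, 17 were lower.

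The clearest members were Oasl2, Trim30a, Phf11d and Trim25. Oasl2, which encodes an oligoadenylate synthetase relative with ubiquitin-like domains, had 68.1, 52.0 and 52.2 in wild type and 6.13, 1.62 and 3.25 in knock-out libraries (log2 fold change -3.75, SE 0.37, adjusted p = 3.80e-05). Trim30a, a tripartite motif protein induced by interferon, had 57.2, 51.2 and 58.8 against 8.17, 9.74 and 9.76 (log2 fold change -2.47, SE 0.30, adjusted p = 0.000215). Trim25, the ubiquitin ligase that acts on the RNA sensor RIG-I, had 42.2, 50.5 and 53.4 against 10.2, 14.6 and 5.42 (log2 fold change -2.25, SE 0.36, adjusted p = 0.00173). For each of these every wild-type value lay well above every knock-out value. Phf11d, a PHD finger protein, showed the same arrangement, with 42.2, 46.7 and 41.2 against 3.06, 7.30 and 5.42 (log2 fold change -2.88, SE 0.39, adjusted p = 0.000505). Isg15, the ubiquitin-like modifier, was chosen after its values were seen because knock-out replicate 3 set it apart: its values were 31.3, 40.7 and 34.6 against 2.04, 4.06 and 19.5 (log2 fold change -2.42, SE 0.54, adjusted p = 0.0172), and its call was lost without wild-type replicate 1, 2 or 3 or knock-out replicate 1 (adjusted p 0.0662, 0.0809, 0.0632 and 0.0523).

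The immunity-related and guanylate-binding GTPases, which coat and disrupt the vacuoles of intracellular pathogens, had the lowest median of all lists with at least 10 tested members. Of 10 tested, 9 were lower and the tenth, Igtp, had a negative fold change, with a median of -2.38, while 3.18% of all tested genes were lower. In all 10 the knock-out values lay below the wild-type values without overlap, as they did in 13.6% of all tested genes. Gbp9 had 81.7, 78.3 and 105 in wild type and 1.02, 8.93 and 0 in knock-out libraries (log2 fold change -5.03, SE 0.61, adjusted p = 0.000200). Iigp1 had 35.4, 52.7 and 49.1 against 7.15, 3.25 and 3.25 (log2 fold change -3.13, SE 0.40, adjusted p = 0.000339). Irgm2, a regulatory member of the IRG family, had 34.0, 40.7 and 28.5 against 3.06, 6.49 and 3.25 (log2 fold change -2.79, SE 0.48, adjusted p = 0.00301). For these 3 genes every knock-out library lay far below every wild-type library. Gbp3 went from a mean of 45.5 ± 4.27 to 8.77 ± 1.57 (SD, n = 3 each), and Gbp6 from 20.3 ± 6.95 to 2.87 ± 1.69 (SD, n = 3 each), with log2 fold changes of -2.26 and -2.51. Gm4841 had 49 reads in the wild-type and 2 in the knock-out libraries, a ratio of normalized values of 20.7 with a 95% counting interval of 5.43 to 176. Gbp7 (-1.95), Gbp2 (-1.81) and Irgm1 (-1.40) fell less on the log2 scale, and their calls were lost without single libraries: Gbp7 without wild-type replicate 2 or 3 or knock-out replicate 1 (adjusted p 0.0809, 0.103 and 0.063). Gbp2 lost its call without any 1 wild-type library, knock-out replicate 1 or 3, or double knock-out replicate 1 or 3 (adjusted p 0.0508 to 0.160). Irgm1 lost it without any 1 wild-type library, knock-out replicate 2 or 3, or double knock-out replicate 3 (adjusted p 0.0635 to 0.169). Igtp had 6.81, 6.03 and 15.8 against 4.08, 5.68 and 0 and did not pass (log2 fold change -1.59, SE 0.71, adjusted p = 0.233).

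The sequences just before the start sites of 3 of these genes are shown because each holds the core of the interferon-stimulated response element (GAAA, any 2 bases, GAAA), the site of interferon-activated transcription factors. They are RefSeq sequences of GRCm38.p6, 150 bases ending at the base before the start site, in the gene's direction, with the core in capitals on whichever strand it lies (TTTC, any 2 bases, TTTC is the same core read on the other strand). Trim30a is at chr7:104465194-104465343 on the minus strand with the core starting 36 bases before the start site, Irgm2 at chr11:58214827-58214976 on the plus strand with the core at 64 bases, and Gbp3 at chr3:142559894-142560043 on the plus strand with 2 overlapping cores, the first at 45 bases.
Trim30a: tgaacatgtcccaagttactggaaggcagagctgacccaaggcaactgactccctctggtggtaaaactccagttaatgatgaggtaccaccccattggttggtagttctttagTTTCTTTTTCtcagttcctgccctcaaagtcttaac
Irgm2: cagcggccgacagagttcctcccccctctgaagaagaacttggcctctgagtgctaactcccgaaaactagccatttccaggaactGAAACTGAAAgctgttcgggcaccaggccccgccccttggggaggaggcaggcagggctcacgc
Gbp3: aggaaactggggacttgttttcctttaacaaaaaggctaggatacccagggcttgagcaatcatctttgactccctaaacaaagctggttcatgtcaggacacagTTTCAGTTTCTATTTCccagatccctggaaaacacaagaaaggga
The core, searched on both strands in the 250 bases before to 50 bases after each start site, was found in 25 of the 46 interferon-stimulated and GTPase genes that had a promoter in the table, and in 290 of 7864 tested genes (3.69%). Only 75.4% of the 61 genes matched, so the share over the list is void. It was present in 13 of the 22 matched members that were lower and in 12 of the 24 that did not pass the test.

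**Figure D2:**
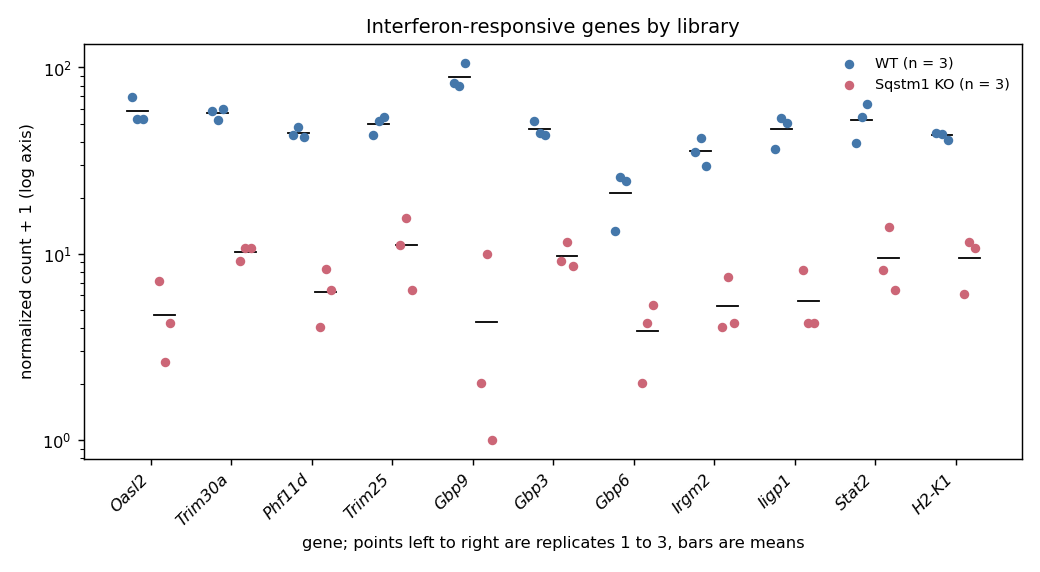
Normalized count plus 1 (log axis) of 11 interferon-responsive genes in each library; blue points are the 3 wild-type libraries, red points the 3 Sqstm1 knock-out libraries, from replicate 1 to 3 left to right, and bars are group means. In each gene all 3 wild-type points lie above all 3 knock-out points; Gbp9 shows the widest spread among the knock-out points, from 0 to 8.93.

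Among 27 interferon receptors, JAK-STAT components and IRF factors, 3 were lower and 0 higher, against 3.18% and 2.43% of all tested genes. The list median was -0.18. The falls included Stat2, a transcription factor of the type I interferon receptor, and Irf7, the factor that amplifies interferon production. Stat2 had 38.1, 53.5 and 62.5 against 7.15, 12.99 and 5.42 (log2 fold change -2.51, SE 0.38, adjusted p = 0.00131). Irf7 had 9.53, 16.6 and 6.06 against 1.02, 2.43 and 0 (log2 fold change -2.52, SE 0.58, adjusted p = 0.0208), and its call was lost without wild-type replicate 1 or 2 (adjusted p 0.0798 and 0.151). The number lower was 1 without wild-type replicate 2, and 1 gene was higher without knock-out replicate 2. Irf7 has exons of Phrf1 on the opposite strand.

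No gene on the list drawn up for the sensing machinery upstream of interferon passed the test. That list leaves out some sensors that were counted above among the interferon-stimulated genes, and some of those were lower. The result therefore holds for the listed genes only. Of the 17 listed cytosolic DNA and RNA sensing genes, 0 were called by limma, by edgeR or by DESeq2, 1 had an unadjusted p under 0.05, and the median was -0.25. With 5.61% of all tested genes called, a list of 17 holds few calls, so its count of 0 does not set it apart. Fold changes were negative in 13 members and positive in 4. Knock-out values were separate and below in 4 members, against 13.6% of all tested genes. Array weights gave 4 members lower, in a setting with 1342 genes lower in all. Cgas, the DNA sensor, had 19.1, 11.3 and 16.4 against 11.2, 12.99 and 3.25 (log2 fold change -0.85, SE 0.51, adjusted p = 0.386). Sting1, the adaptor that binds its product, had 6.81, 11.3 and 11.5 against 11.2, 17.9 and 13.02 (log2 fold change 0.48, SE 0.41, adjusted p = 0.563). Tbk1, the kinase downstream, had 49.0, 70.8 and 63.1 against 28.6, 42.2 and 38.0, with groups that did not overlap (log2 fold change -0.74, SE 0.29, adjusted p = 0.167).

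In 18 genes of MHC class I and peptide loading, 2 were lower and 0 higher, against 3.18% and 2.43% of all genes. H2-K1, which encodes a classical heavy chain, had 43.6, 42.9 and 40.0 in wild type and 5.10, 10.6 and 9.76 in knock-out libraries, tight within each group and far apart between them (log2 fold change -2.24, SE 0.32, adjusted p = 0.000895). H2-Q4 had 24.5, 32.4 and 33.4 against 9.19, 12.99 and 10.8 (log2 fold change -1.37, SE 0.38, adjusted p = 0.0488). The call of H2-Q4 was lost without any of the 3 wild-type libraries, knock-out replicate 1 or 2, or double knock-out replicate 2 or 3 (adjusted p 0.0576 to 0.185). Without knock-out replicate 3 the list count was 4 lower. Of 21 NF-kB subunits, inhibitors and targets, 1 was lower, against 3.18% of all tested genes. That gene was Tnfaip2, a TNF-induced gene, with 27.2, 21.8 and 24.3 against 4.08, 6.49 and 3.25 (log2 fold change -2.22, SE 0.37, adjusted p = 0.00233).

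Cytokine and innate receptor genes moved singly. Cd14, the lipopolysaccharide co-receptor, had 21.8, 16.6 and 14.6 against 3.06, 0.812 and 0 (log2 fold change -3.24, SE 0.59, adjusted p = 0.00459). It is also a macrophage marker. The summed value of the 4 macrophage markers in the table was 20.3 to 35.4 in wild type and 8.68 to 12.3 in knock-out libraries, Cd14 made up most of it in wild type, and Adgre1, Ptprc, Lyz2 and C1qa were not in the table; their part in the falls above was not tested. Il1rl1, the interleukin 33 receptor, had 21.8, 18.8 and 19.4 in wild type and no read in the knock-out libraries, so it was at least 20.9-fold lower against a floor of 3 reads over the group. Cxcl5, a neutrophil-attracting chemokine, went the other way, from 3 reads in wild type to 103 in the knock-out libraries, a ratio of normalized values of 40.7 (95% counting interval 13.5 to 200.4). Il13ra1, a chain of the interleukin 13 receptor, rose from 0, 0 and 3.64 to 15.3, 15.4 and 15.2 (log2 fold change 3.29, SE 0.55, adjusted p = 0.00253). Il1rl1, Cxcl5 and Il13ra1 were the 3 called among 22 cytokine, chemokine and receptor genes tested, against 5.61% of all tested genes. Such floors and intervals cover counting error only.

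The Y-linked genes were part of the same contrast. Ddx3y had 76.3, 67.8 and 76.4 in wild type and Eif2s3y 72.2, 64.8 and 60.6, and both had no read in any knock-out library, so they were at least 76.8-fold and 68.8-fold lower. Kdm5d and Uty were at least 21.4-fold and 17.2-fold lower by the same floor. The double knock-out libraries had reads of Ddx3y, at 47.8, 44.5 and 54.8. Loss of Sqstm1 and absence of Y-linked reads therefore cannot be told apart in any result of this comparison.

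Contractile genes of the myofibroblast were among the rises. Of 44 contractile and smooth muscle genes, 10 were higher and 1 lower, against 2.43% and 3.18% of all genes; 35 had a positive fold change and the median was 0.57. Actg2, gamma smooth muscle actin, had 6.81, 8.29 and 6.06 in wild type and 162, 169.6 and 142 in knock-out libraries (log2 fold change 4.31, SE 0.28, adjusted p = 6.06e-07). Acta2, alpha smooth muscle actin and the usual mark of stellate cell activation, had 77.6, 81.4 and 94.6 against 632, 908 and 918 (log2 fold change 3.25, SE 0.29, adjusted p = 1.62e-05). Myl9, a myosin regulatory light chain, had 19.1, 16.6 and 15.2 against 69.4, 75.5 and 81.3 (log2 fold change 2.09, SE 0.28, adjusted p = 0.000447). In each the knock-out values were several times the wild-type values with no overlap. Tagln, which encodes the actin-binding protein transgelin, had 131, 118 and 93.4 against 417, 348 and 622 (log2 fold change 1.98, SE 0.27, adjusted p = 0.000573). Hspb8, a small heat shock protein on the same list, fell from 65.4, 84.4 and 84.3 to 21.4, 27.6 and 42.3 (log2 fold change -1.37, SE 0.31, adjusted p = 0.0180), a call lost without wild-type replicate 2 or 3 or knock-out replicate 1 (adjusted p 0.104, 0.0871 and 0.0695). The number called higher was 5, 6 and 6 without wild-type replicate 1, 2 or 3. The part of the portal fibroblast and mesothelial markers, whose sums are given above, in the contractile and matrix changes was not tested.

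Myl9 is shown because its upstream sequence holds a CArG box, the site of serum response factor that marks many smooth muscle genes. The 150 bases are RefSeq, GRCm38.p6, chr2:156775233-156775382 on the plus strand, in the direction of the gene, with the box in capitals, and the box begins 161 bases before the start site.
Myl9: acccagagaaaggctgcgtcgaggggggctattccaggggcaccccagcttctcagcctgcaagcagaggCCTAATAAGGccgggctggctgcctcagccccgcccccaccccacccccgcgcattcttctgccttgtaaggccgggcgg
Of the 39 contractile genes with a promoter in the table, 5 held a CArG box in the window of 250 bases before to 50 after the start, and 136 of 7864 tested genes did (1.73%). The box was present in 1 of the 8 matched members that were called, Myl9 itself, and in 4 of the 31 that were not.

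Collagen genes changed unevenly. Of 46 collagens and collagen-processing genes, 7 were higher and 2 lower, against 2.43% and 3.18% of all tested genes, and the median was 0.05. Col1a2 had 294, 281 and 303 in wild type and 1858, 2115 and 2356 in knock-out libraries (log2 fold change 2.84, SE 0.26, adjusted p = 1.70e-05). Its partner chain in type I collagen, Col1a1, had 783, 714 and 756 against 2475, 2022 and 932, a spread set by replicate 3, and did not pass the test (log2 fold change 1.15, SE 0.45, adjusted p = 0.167). Col6a3 had 16.3, 16.6 and 16.4 against 212, 224 and 77.0 (log2 fold change 3.16, SE 0.36, adjusted p = 0.000111), and Col12a1 had 38.1, 35.4 and 37.6 against 199, 299 and 90.0 (log2 fold change 2.21, SE 0.35, adjusted p = 0.00173). In both, knock-out replicate 3 was the lowest of its group and still above every wild-type library. Col14a1 rose from 3 reads to 65 (ratio of normalized values 25.7, 95% counting interval 8.4 to 128). Col3a1 rose from 217 ± 32.0 to 477 ± 89.9 (SD, n = 3 each) (log2 fold change 1.12, SE 0.25, adjusted p = 0.0156), a call lost without wild-type replicate 2 or 3 (adjusted p 0.124 and 0.0668). Without knock-out replicate 3 the count was 12 higher, and without wild-type replicate 2 it was 4.

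The falls among collagen-processing genes were Loxl4, a lysyl oxidase-like crosslinking enzyme, and P4ha1, a prolyl hydroxylase subunit. Loxl4 had 76.3, 54.2 and 61.2 against 20.4, 23.5 and 14.1 (log2 fold change -1.69, SE 0.31, adjusted p = 0.00466). P4ha1 fell from 339.8 ± 30.2 to 170.4 ± 34.6 (SD, n = 3 each) (log2 fold change -1.01, SE 0.24, adjusted p = 0.0234), a call lost without any wild-type library or knock-out replicate 1 (adjusted p 0.0548 to 0.125).

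Other matrix proteins split into opposite directions. Of 44 matricellular proteins, glycoproteins and proteoglycans, 5 were higher and 4 lower, against 2.43% and 3.18% of all tested genes. The list median was -0.01. Thbs2, a thrombospondin that binds matrix and growth factors, had 170.2, 188 and 226 in wild type and 0, 2.43 and 1.08 in knock-out libraries, 1 of the largest falls in the table (log2 fold change -6.66, SE 0.40, adjusted p = 3.94e-07). Tnxb, tenascin X, had 208, 159 and 119 against 65.3, 50.3 and 33.6 (log2 fold change -1.70, SE 0.30, adjusted p = 0.00387). Postn, periostin, rose from 5.45, 11.3 and 13.3 to 92.9, 125 and 79.2 (log2 fold change 3.23, SE 0.35, adjusted p = 8.30e-05). Dcn, the small proteoglycan decorin, rose from 0, 3.01 and 0.606 to 23.5, 28.4 and 24.9 (log2 fold change 3.83, SE 0.48, adjusted p = 0.000305). Prelp, of the same proteoglycan family, had no read in wild type and 28 in the knock-out libraries, at least 10.7-fold higher. Each count was moved by single libraries: the rises numbered 3 without any 1 wild-type library, and the falls 2 without any 1 wild-type library or without double knock-out replicate 2 or 3.

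Among 34 metalloproteinases, inhibitors and related proteases, 3 were higher and 4 lower, against 2.43% and 3.18% of all tested genes. Mmp2, gelatinase A, fell from 32.7, 58.8 and 54.0 to 9.19, 5.68 and 11.9 (log2 fold change -2.32, SE 0.36, adjusted p = 0.00138). Timp1, an inhibitor of metalloproteinases, rose from 6.81, 8.29 and 6.67 to 37.8, 23.5 and 55.3 (log2 fold change 2.20, SE 0.37, adjusted p = 0.00289). The matrix protease gene Adamts7 fell from 69.5, 57.3 and 49.7 to 16.3, 14.6 and 23.9 (log2 fold change -1.65, SE 0.29, adjusted p = 0.00362). In these 3 genes the groups were separate. The other called rises of the list were of proteases, not of inhibitors, so proteases were called in both directions. The rises numbered 1 without wild-type replicate 1 or 2, and the falls 2 without wild-type replicate 2 or 3.

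**Figure D3:**
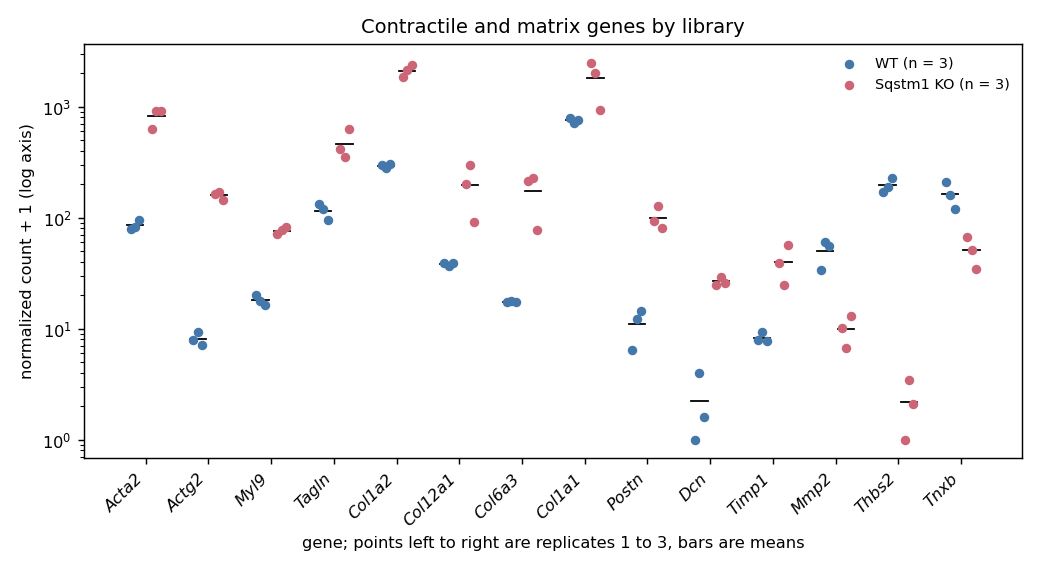
Normalized count plus 1 (log axis) of 14 contractile and matrix genes in each library; blue points are wild type, red points Sqstm1 knock-out, replicates 1 to 3 from left to right, bars are group means. Acta2, Actg2, Col1a2 and Postn lie higher in all 3 knock-out libraries, while Mmp2, Thbs2 and Tnxb lie lower; for Col1a1, Col6a3 and Col12a1 knock-out replicate 3 is the lowest red point.

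Ligands and antagonists of the TGF-beta superfamily changed in both directions. Grem1, which encodes a secreted antagonist of bone morphogenetic proteins, had 155, 191 and 223 in wild type and 20.4, 23.5 and 7.59 in knock-out libraries (log2 fold change -3.51, SE 0.41, adjusted p = 0.000134). Inhba, the subunit of activin A, rose from 25.9, 25.6 and 21.8 to 74.5, 87.7 and 77.0 (log2 fold change 1.67, SE 0.27, adjusted p = 0.00173). Tgfbr3, the co-receptor betaglycan, fell from 38.1, 35.4 and 48.5 to 3.06, 4.87 and 6.51 (log2 fold change -2.87, SE 0.32, adjusted p = 9.44e-05). Of 38 genes of these pathways, 3 were higher and 3 lower, against 2.43% and 3.18% of all tested genes.

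Growth factor genes also changed in both directions. Fgf7 and Fgf10 encode ligands of the same fibroblast growth factor receptor isoform on epithelial cells. Fgf7 had 2.72, 0.753 and 3.03 against 37.8, 54.4 and 40.1 (log2 fold change 3.90, SE 0.40, adjusted p = 4.44e-05), whereas Fgf10 went from 94 reads in wild type to 1 in the knock-out libraries (ratio of normalized values 79.4, 95% counting interval 13.9 to 3168). Ptn, pleiotrophin, rose from 0, 2.26 and 2.43 to 33.7, 49.5 and 59.7 (log2 fold change 4.41, SE 0.43, adjusted p = 3.21e-05). The gene of its receptor, Ptprz1, rose from 3 reads to 199 (ratio 78.6, 95% counting interval 26.5 to 384). Igfbp6, a binding protein of insulin-like growth factor 2, fell from 30.0, 27.9 and 19.4 to 2.04, 4.87 and 0 (log2 fold change -3.33, SE 0.59, adjusted p = 0.00384). Gas6, ligand of the TAM receptors, rose from 0, 4.52 and 6.67 to 20.4, 27.6 and 24.9 (log2 fold change 2.85, SE 0.61, adjusted p = 0.0128), and Tmem255b on its opposite strand rose from 31.3, 16.6 and 14.6 to 246, 182 and 129. Of 41 growth factor, binding protein and receptor genes, 7 were higher and 3 lower, against 2.43% and 3.18% of all tested genes. The list gave 4 higher without any 1 wild-type library or double knock-out replicate 3, and 5 lower without double knock-out replicate 1. Npr3, the clearance receptor of natriuretic peptides, rose from 4.09, 5.27 and 3.64 to 60.2, 47.9 and 22.8 (log2 fold change 2.97, SE 0.38, adjusted p = 0.000363).

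The stellate markers themselves did not move one way. Of the 12 tested, 5 were higher, namely Acta2, Col1a2, Col3a1, Dcn and Hand2, and Nes was lower, against 2.43% and 3.18% of all genes. Hand2, a transcription factor of stellate and other mesenchymal cells, had 28.6, 14.3 and 13.9 against 57.2, 54.4 and 138 (log2 fold change 2.01, SE 0.38, adjusted p = 0.00578). Nes, nestin, had 99.4, 105 and 104 against 42.9, 43.0 and 34.7 (log2 fold change -1.34, SE 0.28, adjusted p = 0.0101), a call lost without wild-type replicate 2 (adjusted p 0.0632). Pdgfrb (-0.08), Pdgfra (-0.43) and Ecm1 (0.60), given as log2 fold changes, did not pass. Of 14 quiescence and retinoid genes, 2 were higher and 3 lower, against 2.43% and 3.18% of all genes, with a median of -0.35. Aldh1a1, an enzyme that makes retinoic acid, rose from 1.36, 7.53 and 1.82 to 19.4, 13.8 and 32.5 (log2 fold change 2.49, SE 0.67, adjusted p = 0.0444), a call lost without any 1 knock-out library, wild-type replicate 1 or 3, or double knock-out replicate 3 (adjusted p 0.0535 to 0.173). Angptl6, an angiopoietin-like secreted protein, had 61.3, 49.7 and 47.3 against 0, 3.25 and 6.51 (log2 fold change -4.07, SE 0.55, adjusted p = 0.000505). The rises numbered 1 without wild-type replicate 1 or 3, any 1 knock-out library or double knock-out replicate 3, and the falls 1 without wild-type replicate 2.

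Calls in the pathways in which p62 itself acts are set beside the 5.61% of all tested genes that were called. At that share lists of 34 or 40 genes hold few calls, so counts of 0 do not set them apart. Of 22 selective autophagy genes 2 were lower beside 1 higher, and Sqstm1 was one of the falls. Stbd1, a glycogen-binding autophagy protein, rose from 9.53, 4.52 and 12.1 to 27.6, 24.3 and 31.5 (log2 fold change 1.65, SE 0.39, adjusted p = 0.0234), a call lost without wild-type replicate 1 or 2 or knock-out replicate 1 (adjusted p 0.063, 0.132 and 0.0594). Wdr81, which takes part in clearance of ubiquitinated aggregates, fell from 21.8, 18.1 and 13.9 to 4.08, 4.87 and 3.25 (log2 fold change -1.89, SE 0.51, adjusted p = 0.0453), a call lost without any of the wild-type or knock-out libraries or double knock-out replicate 2 (adjusted p 0.0549 to 0.182). Tax1bp1, a receptor related in function to p62, had 58.6, 67.0 and 80.7 against 87.8, 112 and 175 and did not pass (log2 fold change 0.80, SE 0.28, adjusted p = 0.122). Of 34 core autophagy genes, limma called 0, edgeR and DESeq2 called 1 higher each, and 1 in each direction had an unadjusted p under 0.05. Of 34 partners of p62 in nutrient and kinase signalling, limma called 0, edgeR and DESeq2 1 higher each, and 3 higher and 2 lower had an unadjusted p under 0.05. Limma called 1 higher of the core genes without knock-out replicate 2, and 1 higher of the partners without knock-out replicate 1 or double knock-out replicate 2. Of 40 proteasome subunits, limma, edgeR and DESeq2 each called 0, and 0 reached an unadjusted p under 0.05.

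The KEAP1-NRF2 targets were close to the background. Of 38 tested, 1 was higher and 0 lower, against 2.43% and 3.18% of all tested genes, with a median of -0.01. That gene was Slc7a11, the cystine-glutamate exchanger, with 2.72, 7.53 and 3.64 against 29.6, 47.9 and 15.2 (log2 fold change 2.45, SE 0.51, adjusted p = 0.0108), a call lost without wild-type replicate 1 (adjusted p 0.0646). Keap1 had 42.2, 50.5 and 51.5 against 26.5, 24.3 and 33.6 and did not pass (log2 fold change -0.76, SE 0.34, adjusted p = 0.234). In the vitamin D receptor pathway 1 of 12 was called, against 5.61% of all tested genes. That gene, Cyp27b1, the enzyme that makes the active hormone, fell from 70.8, 59.5 and 49.7 to 10.2, 9.74 and 30.4 (log2 fold change -1.96, SE 0.42, adjusted p = 0.0129), a call lost without wild-type replicate 1 or 2 (adjusted p 0.0798 and 0.064). Rxra, which encodes the partner that the vitamin D receptor binds DNA with, had 24.5, 24.1 and 33.4 against 19.4, 16.2 and 10.8 and did not pass (log2 fold change -0.80, SE 0.35, adjusted p = 0.225). Among lysosomal genes, Ctsc, which encodes cathepsin C, had no read in wild type and 8.17, 9.74 and 18.4 in the knock-out libraries, at least 14.99-fold higher.

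Slc7a11 is also a target of ATF4, the transcription factor of the amino acid response. Of 35 such genes, 7 were higher and 0 lower, against 2.43% and 3.18% of all tested genes, with a median of 0.51 and 27 positive fold changes. Asns, asparagine synthetase, had 21.8, 23.4 and 24.9 against 78.6, 88.5 and 70.5 (log2 fold change 1.72, SE 0.26, adjusted p = 0.00131). Mthfd2, a mitochondrial folate enzyme, had 19.1, 17.3 and 20.6 against 55.1, 68.2 and 59.7 (log2 fold change 1.63, SE 0.31, adjusted p = 0.00576). Both rose in every knock-out library. Phgdh, the first enzyme of serine synthesis, rose from 57.2 ± 2.40 to 140.2 ± 7.75 (SD, n = 3 each) (log2 fold change 1.28, SE 0.29, adjusted p = 0.0169), a call lost without any wild-type library or knock-out replicate 1 (adjusted p 0.0543 to 0.0843). The list count was 2, 3 and 3 without wild-type replicate 1, 2 or 3 and 3 without knock-out replicate 1. Of 20 cytosolic aminoacyl-tRNA synthetases, many of which are ATF4 targets, 3 were higher, 0 lower and 17 had a positive fold change. Gars, glycyl-tRNA synthetase, had 87.2, 55.7 and 75.8 against 227, 215 and 271 (log2 fold change 1.71, SE 0.26, adjusted p = 0.00131). The synthetase count was 1 without any 1 wild-type library and 6 without knock-out replicate 3. Of 40 chaperones and unfolded protein response genes of the endoplasmic reticulum, 0 were called by limma, edgeR or DESeq2, and 2 had an unadjusted p under 0.05. Without knock-out replicate 3, 1 was higher.

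The upstream sequence of Asns is shown because it holds the amino acid response element TGATGNAA at which ATF4 acts. It is RefSeq, GRCm38.p6, chr6:7693210-7693359 on the minus strand, in the direction of the gene, with the element in capitals, starting 23 bases before the start site.
Asns: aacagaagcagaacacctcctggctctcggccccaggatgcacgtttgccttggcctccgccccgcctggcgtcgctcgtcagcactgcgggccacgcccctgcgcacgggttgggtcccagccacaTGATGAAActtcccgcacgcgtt
The element was in 6 of the 30 amino acid response genes with a promoter in the table and in 222 of 7864 tested genes (2.82%), searched on both strands in the same window. It was present in 2 of the 6 matched members that were called and in 4 of the 24 that were not.

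Metabolic genes changed in both directions. Of 32 glycolysis and hypoxia genes, 2 were higher and 4 lower, with a median of -0.33, and of 27 lipid droplet and fatty acid genes 1 was higher and 4 lower, with a median of -0.41, against 2.43% and 3.18% of all tested genes. These counts rested on the wild-type libraries: without replicate 1, 2 or 3 the glycolysis and hypoxia list gave 1, 0 and 1 higher and 1, 2 and 2 lower, and the lipid list gave 0 lower each time. The lipid list gave 0 higher without wild-type replicate 1 and 2 lower without knock-out replicate 1 or 2, and the other list gave 1 higher without double knock-out replicate 3. With the 6 libraries alone the glycolysis and hypoxia list gave 0 higher and 2 lower, and the lipid list 1 higher and 1 lower. Pdk1, the kinase that holds pyruvate dehydrogenase off, fell from 62.6, 56.5 and 53.4 to 17.4, 26.0 and 19.5 (log2 fold change -1.43, SE 0.27, adjusted p = 0.00571). Abca1, the cholesterol exporter, fell from 40.9, 41.4 and 40.6 to 10.2, 12.99 and 4.34 (log2 fold change -2.16, SE 0.37, adjusted p = 0.00327). In Pdk1 and Abca1 the knock-out libraries lay below all wild-type libraries. Abca1 is from a separate list of 25 cholesterol synthesis and uptake genes, of which 0 were higher and 1 was lower. The genes called higher on the glycolysis and hypoxia list and on the lipid list are counted above but not named. Of 75 cytosolic ribosomal protein genes, 69 had a positive fold change and the median was 0.52, but limma called 0, edgeR 2 higher and DESeq2 5 higher, and 20 had an unadjusted p under 0.05. Without knock-out replicate 3 the median was 0.16, and limma called 2, 2 and 1 higher without knock-out replicate 2 or double knock-out replicate 1 or 2. For 72 nuclear-encoded respiratory chain genes the median was 0.29 and fell to -0.11 without that library. Limma called 0 of them, edgeR 0 and DESeq2 2 higher, and 9 higher and 1 lower had an unadjusted p under 0.05. Without knock-out replicate 1 limma called 2 higher. The positive medians of these 2 lists thus rested in large part on 1 library.

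Several developmental transcription factor genes had reads in one group and few or none in the other. Irx2, an Iroquois homeobox gene, had 38.1, 36.2 and 40.0 in wild type and 0, 0 and 4.34 in knock-out libraries (log2 fold change -4.48, SE 0.80, adjusted p = 0.00402). Foxl2, of the forkhead family, and Ebf3, of the early B-cell factor family, had no read in the knock-out libraries and were at least 24.9-fold and 27.9-fold lower. Prrx1, a homeobox gene of mesenchyme, fell from 148, 149.9 and 163 to 27.6, 49.5 and 46.6 (log2 fold change -1.92, SE 0.29, adjusted p = 0.00130). Sox11, a progenitor transcription factor gene, rose from 0, 0.753 and 1.82 to 16.3, 13.8 and 22.8 (log2 fold change 3.42, SE 0.52, adjusted p = 0.00132). Of 39 developmental transcription factors, 6 were higher and 5 lower, against 2.43% and 3.18% of all tested genes. The list gave 3 higher without wild-type replicate 1 or 2 or knock-out replicate 1. Within the Hox clusters, Hoxa10 rose from 4.09, 1.51 and 3.64 to 27.6, 33.3 and 43.4 (log2 fold change 3.17, SE 0.57, adjusted p = 0.00390). Hoxb5 and Hoxb6 fell from 36.3 ± 14.6 to 4.11 ± 3.96 (SD, n = 3 each) and from 49.0 ± 20.5 to 7.06 ± 3.40 (SD, n = 3 each), and both calls were lost without wild-type replicate 1 (adjusted p 0.068 and 0.0667).

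Rises outnumbered falls among the called cell surface and guidance genes, but neither list leaned to one side as a whole. Of 24 cadherins, protocadherins and integrins, 2 were higher and 1 lower, against 2.43% and 3.18% of all tested genes. Fold changes of that list were positive in 12 and negative in 12, with a median of 0.05. Cdh11, the cadherin of activated fibroblasts, had 0, 0.753 and 1.82 in wild type and 78.6, 118 and 34.7 in knock-out libraries (log2 fold change 5.35, SE 0.48, adjusted p = 1.62e-05). Cdh3, P-cadherin, went from 1 read to 75 (ratio of normalized values 88.8, 95% counting interval 15.5 to 3554). Of 28 slits, semaphorins, ephrins and their receptors, 6 were higher and 1 lower, with 14 positive and 14 negative fold changes and a median of 0.05. Slit2 rose from 16.3, 15.8 and 24.9 to 90.9, 103 and 54.2 (log2 fold change 2.04, SE 0.31, adjusted p = 0.00138), Sema3c from 14.98, 12.1 and 15.2 to 31.6, 58.4 and 45.6 (log2 fold change 1.58, SE 0.29, adjusted p = 0.00459), and Epha4, an ephrin receptor, from 0, 0.753 and 1.82 to 20.4, 23.5 and 18.4 (log2 fold change 3.67, SE 0.61, adjusted p = 0.00239). The single fall of that list was lost without any 1 wild-type library or knock-out replicate 1. Of 13 imprinted genes 2 were higher, against 2.43% of all tested genes. Rtl1, a retrotransposon-derived gene expressed from the paternal allele, had 5.45, 6.03 and 5.46 against 93.9, 80.3 and 132 (log2 fold change 3.93, SE 0.31, adjusted p = 4.75e-06), with microRNA genes on its opposite strand. Grb10, an adaptor that restrains insulin receptor signalling, had 30.0, 27.9 and 22.4 against 168, 232 and 106 (log2 fold change 2.55, SE 0.30, adjusted p = 0.000134).

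**Figure D4:**
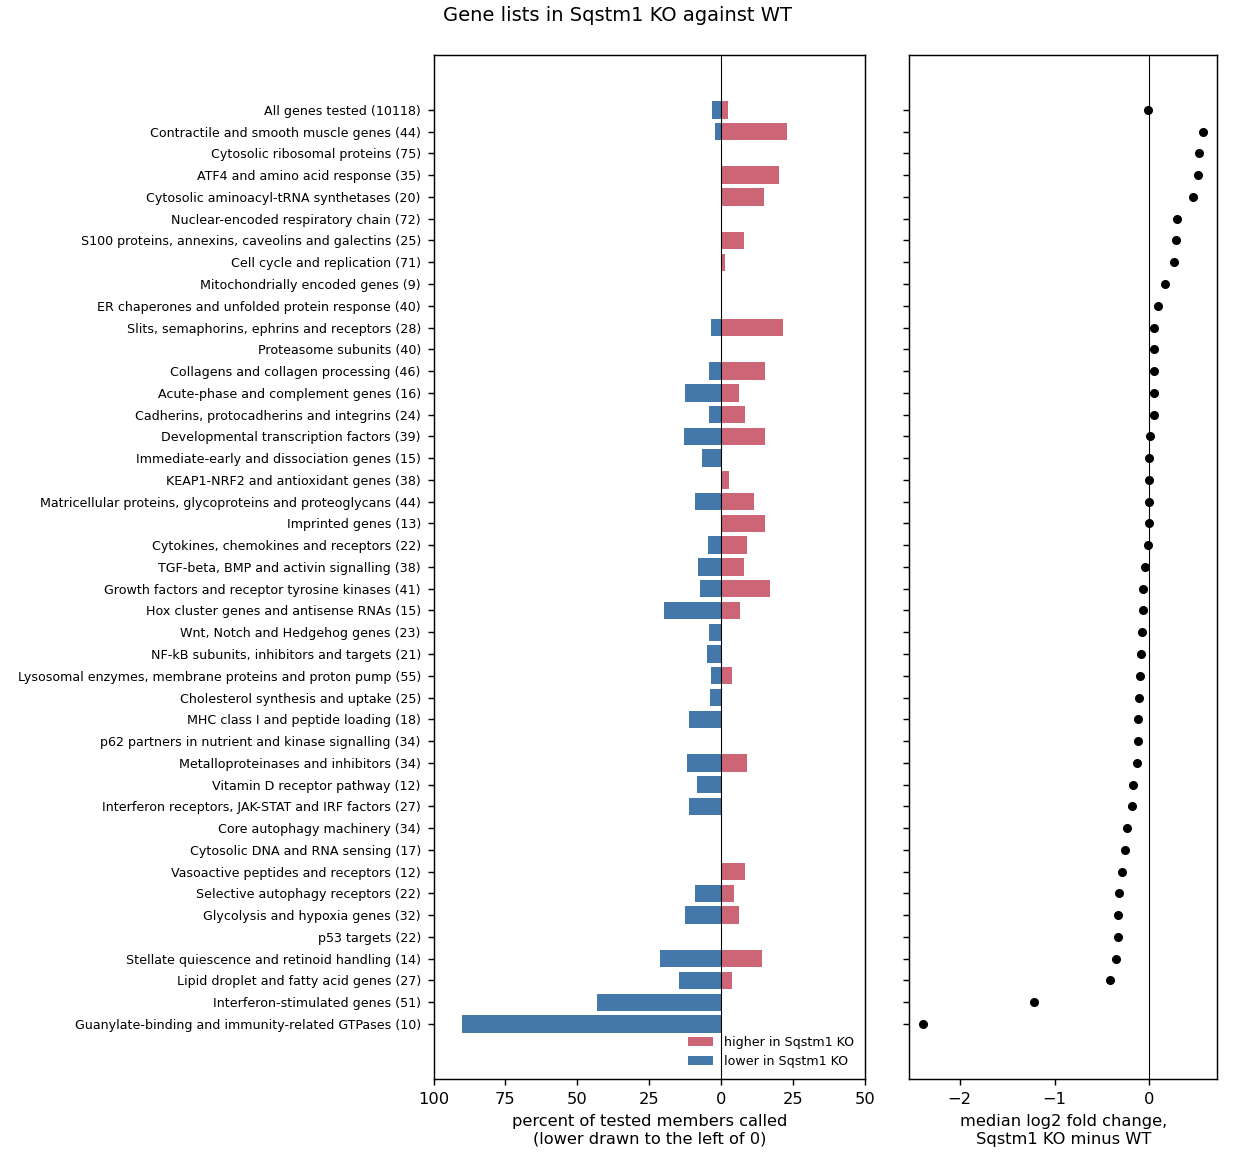
For each gene list of at least 9 tested members, cell type markers and sex-linked genes left out, with its number of tested members in brackets, the left panel gives the percent called higher (red, right of 0) and lower (blue, left of 0) and the right panel the median log2 fold change, with all 10118 genes in the top row. Among the lists drawn, the interferon-stimulated genes and the GTPases lie lowest, with medians of -1.21 and -2.38, and the contractile list lies highest at 0.57.

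The largest fall in the table was that of Tm6sf1, which has exons of Hdgfl3 on its opposite strand. Tm6sf1 had 947 reads in wild type and 1 in the knock-out libraries (ratio of normalized values 799.7, 95% counting interval 143 to 31619), and Hdgfl3, looked up after its partner, fell from 55.8, 47.5 and 44.9 to 3.06, 3.25 and 0 (log2 fold change -4.28, SE 0.55, adjusted p = 0.000363). This was part of a wider pattern. Of the 9219 tested genes matched to a gene model, 3668 (39.8%) had exons of another gene on the opposite strand. Among the 100 genes highest in the table by mean value with a match, 72 had such an overlap, against 36.3% of the rest. In 1250 pairs of overlapping genes both were tested. Both were called in 18, and all 18 changed in the same direction, while 803 of the 1250 had the same sign. Pcsk7, opposite Tagln, had 2645, 1929.9 and 1774 in wild type and 17532, 11064 and 30316 in knock-out libraries (log2 fold change 3.11, SE 0.47, adjusted p = 0.00122), and Tagln rose with it. Among the named genes, Adamts7, Angptl6, Cgas, Ebf3, Eng, Fgf10, Foxl2, Gas6, Gbp2, H2-Q4, Hand2, Hdgfl3, Hoxb5, Irf7, Keap1, Mrnip, Npr3, Pcsk7, Pdgfra, Prelp, Rtl1, Sqstm1, Tagln, Tax1bp1, Tm6sf1, Tmem255b, Tnfaip2 and Tnxb have exons of another gene on the opposite strand, and their values are uncertain for that reason. The part of unstranded or opposite-strand counting was not tested, either in these pairs or in genes without such a partner. Values of the other named genes are therefore not shown to be free of it.

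**Figure D5:**
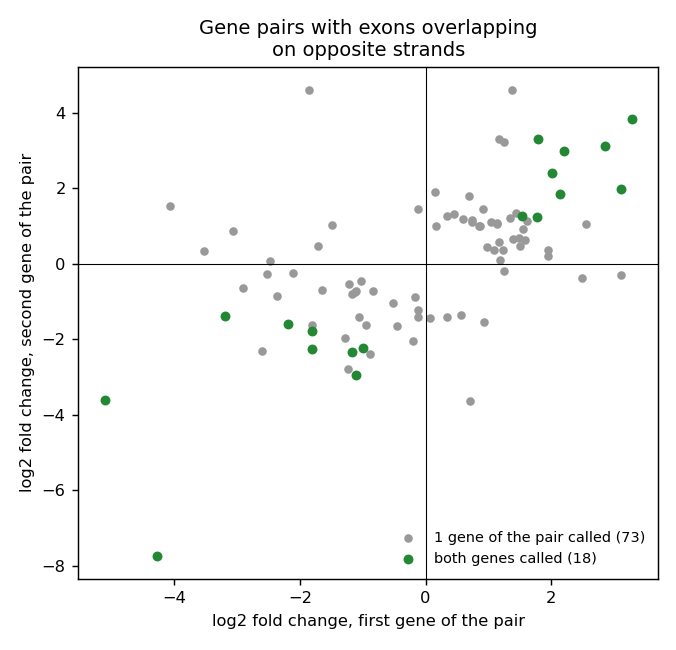
Log2 fold changes of Sqstm1 knock-out against wild type for the 91 gene pairs with exons overlapping on opposite strands in which at least 1 gene was called (horizontal axis the first gene, vertical axis the second). Green points are the 18 pairs with both genes called, and all 18 lie in the quadrants where both genes rose or both fell; grey points are the 73 pairs with 1 gene called.

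The double knock-out libraries, compared with the same Sqstm1 knock-out libraries and so sharing them with the comparison above, are given for genes already described. That contrast called 600 genes (5.93%), 447 (4.42%) higher and 153 (1.51%) lower in the double knock-out. Sqstm1 had 25.8, 51.4 and 59.9 (log2 fold change against Sqstm1 knock-out -0.15, SE 0.38, adjusted p = 0.866). In those same 3 libraries Nbr1 had 81.3, 79.9 and 111, with no call against the Sqstm1 knock-out (log2 fold change against Sqstm1 knock-out 0.19, SE 0.24, adjusted p = 0.722), so its counts do not check that label, and the deleted part is not known here. Oasl2 had 49.7, 59.4 and 50.9 (log2 fold change against Sqstm1 knock-out 3.66, SE 0.37, adjusted p = 3.75e-05), H2-K1 had 60.2, 68.5 and 50.9 (log2 fold change against Sqstm1 knock-out 2.73, SE 0.32, adjusted p = 0.000131), and Thbs2 had 137, 188 and 115 (log2 fold change against Sqstm1 knock-out 6.23, SE 0.40, adjusted p = 7.17e-07). In these 3 genes every double knock-out value lay above every Sqstm1 knock-out value. The Y-linked genes were higher in the same contrast, Ddx3y with a fold change on the log2 scale of 5.64 (SE 0.34, adjusted p = 4.20e-07), so the presence of Y-linked reads and the genotype cannot be told apart here either. Acta2 had 266, 545 and 335, between the other groups (log2 fold change against Sqstm1 knock-out -1.14, SE 0.29, adjusted p = 0.0316). Col1a2 had 1966, 1647 and 1584, without a call against the Sqstm1 knock-out (log2 fold change against Sqstm1 knock-out -0.28, SE 0.26, adjusted p = 0.597), and Ptprz1 had 0.956, 3.42 and 3.82, close to wild type (log2 fold change against Sqstm1 knock-out -4.22, SE 0.55, adjusted p = 0.000314).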

How the data were processed

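The authors deposited 1 table of signal values, which are counts of reads per gene scaled by a size factor for each library. STAR, DESeq2 and the build GRCm39 stand in the submitters' processing notes, while versions, kit, strandedness, read counter, annotation and gene filter were left unstated (not given in the sources used here). All nonzero values were whole multiples of what 1 read is worth, within a tolerance of 0.01 (100% of 121126 values), so whole reads were recovered.

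Genes that reached 10 in 3 or more of 9 libraries were tested with limma 3.58.1 (R 4.3.3) on log2 of the value plus 1, with a mean-variance trend, 3 groups and no covariate. Tests were two-sided, with Benjamini-Hochberg adjustment over all 10118 genes, a threshold of 0.05 and 14.0 degrees of freedom in all, those of the residuals plus those limma borrows across genes. Fold changes on this scale understate the change of low genes. With 3 libraries against 3, the smallest exact permutation p is 0.1. A group with no read was set to a floor of 3 reads over its libraries; intervals are exact 95% binomial ones on read counts. Alternatives used edgeR 4.0.16 and DESeq2 1.42.0 on recovered reads, other pseudocounts and filters, quantile normalization, array weights, the 6 libraries alone, a replicate block and each library left out. The fit was tested on simulated data.

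Opposite-strand exons came from GENCODE gene models on GRCm38, matched by symbol (12514 of 14020 genes, 89.3%), and promoters from RefSeq. Members and gene lists were chosen with earlier results of these data known. Named genes are from a rule: Sqstm1 and Nbr1, the 15 genes that rose most and the 15 that fell most with separate groups and a higher mean of at least 50, up to 4 called members of each list and direction by smallest p (2 where none was called), and every tested gene of 6 lists. It gave 214 genes, of which a part is described. Mrnip, Hdgfl3 and Isg15 were chosen after their values were seen.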

Additional observations from a re-analysis of the deposited data

How the results depend on the processing

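Of the 93 named genes that passed the test, 74 kept the call without each library in turn. The genes described are a part of those the naming rule gave, and they were the steadier part. Of all 138 called genes from that rule, 54 lost the call without some 1 library. Over all alternatives, 1867 of 1968 values of named genes kept direction and side of the threshold, 86 lost the call, 13 gained one, and 2 changed sign: the log2 fold change of Pdgfrb, not called, was 0.000113 without wild-type replicate 3 and 0.055 without knock-out replicate 3, in a range from -0.23 over the libraries left out. Leaving out 1 library gave 116 to 277 genes higher and 148 to 382 lower. It gave 10 to 22 interferon-stimulated genes lower, 6 to 9 GTPases lower, 5 to 12 contractile genes higher and 2 to 9 amino acid response genes higher. With a value of at least 50, 129 genes were higher and 161 lower, and the 4 lists gave 10, 3, 7 and 4, as fewer genes were tested. Array weights gave 1297 higher and 1342 lower, 37 interferon-stimulated, 17 contractile and 15 amino acid response genes; the cause was not tested. DESeq2 called 385 higher. The 6 libraries of this comparison alone gave 164 higher and 257 lower, 421 genes against 568 in the main fit. They gave 16 interferon-stimulated genes and 8 GTPases lower, and 7 contractile and 6 amino acid response genes higher. The alternatives for the GTPase and amino acid response lists were chosen after seeing the data. Whether the replicate numbers pair the samples cannot be told from these values. Deviations of same-numbered wild-type and knock-out libraries correlated at 0.18, 0.11 and 0.06, and those of differently numbered ones at -0.21 to 0.12. With the replicate number as a block, 297 genes were higher and 393 lower. Depth limits genes of few reads.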
